A study of Mus musculus with 12 samples.

Results

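The genes described here are 10 members of the MHC class I antigen presentation pathway, measured by RNA-seq in mouse natural killer (NK) cells, lymphocytes that kill target cells and secrete interferon gamma. They were chosen by symbol from the deposited table, and all 10 of 10 were found among its 55487 features and among the 12364 genes tested. H2-K1 and H2-D1 encode the classical class I heavy chains and B2m their light chain, beta-2 microglobulin. Tap1 and Tap2 encode the peptide transporter and Tapbp its partner tapasin, Psmb8, Psmb9 and Psmb10 the catalytic subunits of the immunoproteasome, and Nlrc5 a transcriptional regulator of class I genes.

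All cells came from mice of the strain B6.129S4-Ifngtm3.1Lky/J, labelled mut/mut, in which a yellow fluorescent protein (YFP) reporter sits at the interferon gamma gene, and all were primed with IL-15 (HD IL-15 in the labels). The 4 unstimulated samples were compared with 4 YFP- and 4 YFP+ samples of cells stimulated through NK1.1, an activating surface receptor, by 6 h of anti-NK1.1, so the stimulated groups were separated by their reporter signal. Each group had 1 sample with each of the replicate labels f2 (titled F), m2, m3 and m4 (titled M2 to M4). The labels do not give the age of the mice, the sorting markers or whether samples came from separate mice, so p-values measure the spread between these samples.

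Class I molecules display peptides from proteins made inside the cell to cytotoxic T cells, and the same molecules are ligands of inhibitory receptors on NK cells. Proteasomes cut the peptides, the TAP transporter carries them into the endoplasmic reticulum, and tapasin and chaperones load them on the heavy chain with its light chain. Interferons induce the immunoproteasome subunits, which replace the constitutive catalytic subunits in newly built proteasomes, and NLRC5 acts on the conserved upstream boxes of class I promoters.

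Library totals ran from 32.1 to 54.2 M reads, so 3 reads, the floor used here for a level, were 0.0553 to 0.0933 CPM (reads scaled to a common library total). The share of reads on 359 rRNA-like features ran from 27.4 to 35.3% before stimulation, from 15.9 to 30.3% in the YFP- group and from 13.7 to 29.8% in the YFP+ group. The lowest Pearson correlation across genes between replicates was 0.938, between YFP+ f2 and m3, and within each of the other groups it was at least 0.974. The 10 NK cell markers, led by Gzma, summed to 9549 to 16230 CPM. Against unstimulated samples 6 of the 10 were lower and 2 higher in both YFP- and YFP+ (limma adjusted p under 0.05). Of all genes tested, 20.9% were lower and 30.2% higher in YFP-, and 33.3% and 27.5% in YFP+. Between YFP+ and YFP- 5 were lower and 1 higher, against 18.5% and 3.28% of all genes. In YFP+ against unstimulated samples Klrb1c fell most (-5.64 on the log2 scale) and Tbx21 rose most (1.34). The part of these markers in the results was not tested. B cell markers summed to 0.663 to 4.38 CPM, granulocyte markers to at most 1.82 CPM and T cell markers to 118 to 295 CPM, led by Cd28. Of the 3 T cell markers tested, Cd28 averaged 72.6, 124 and 199 CPM in unstimulated, YFP- and YFP+ samples, while Cd3g averaged 47.9, 32.5 and 20.7 CPM and Cd3d 17.8, 15.7 and 10.4 CPM. In YFP+ against unstimulated samples Cd28 was higher (1.42) and Cd3g (-1.22) and Cd3d (-0.77) were lower (limma adjusted p = 0.00017, 0.0059 and 0.012), and their part in the results was not tested. Cd3e, Cd4, Cd8a, Cd8b1 and Cd5 were too low to be tested. Macrophage, monocyte and dendritic cell markers summed to 39.1 to 49.6 CPM before stimulation, 35.5 to 53.7 CPM in the YFP- group and 21.8 to 24.5 CPM in the YFP+ group, most of it Itgax, and their part in the results was not tested. Adgre1 and Clec9a were at 0 reads in all 4 YFP+ samples and Lyz2 in all 4 YFP- samples. In such bulk samples, fewer cells of a type and less RNA per cell cannot be told apart.

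Windows around the RefSeq start sites were searched for elements through which class I genes are known to be regulated. RefSeq windows on GRCm38.p6, from 250 bases before to 50 after the start site, were present for 8 of the 10 genes, all but Tap2 and Nlrc5. The 250 bases before the RefSeq start lie in no GENCODE M21 exon for H2-K1. They lie wholly in such exons for H2-D1, Tap1, Tapbp, Psmb8 and Psmb9, and so are not upstream of every annotated transcript of these 5 genes or their neighbours. The windows of H2-K1 and B2m before the start site are shown because they carry the interferon elements and conserved boxes of the molecule's heavy and light chain. The capitals mark matches on either strand. In H2-K1 they are, in order, enhancer A (an NF-kappaB site, the 10 bases that begin GGGG), the interferon response sequence GAANNGAAA on the other strand, the X2 box core TGACG and the Y box ATTGG. In B2m they are the interferon-stimulated response element (GAAA, any 2 bases, GAAA), TGACG and ATTGG.
H2-K1, chr17:34000348-34000597, minus strand: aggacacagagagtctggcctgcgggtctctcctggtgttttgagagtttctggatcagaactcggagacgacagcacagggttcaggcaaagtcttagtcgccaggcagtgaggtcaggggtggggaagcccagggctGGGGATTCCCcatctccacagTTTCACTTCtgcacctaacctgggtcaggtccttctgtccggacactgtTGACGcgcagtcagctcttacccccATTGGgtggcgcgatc
B2m, chr2:122147437-122147686, plus strand: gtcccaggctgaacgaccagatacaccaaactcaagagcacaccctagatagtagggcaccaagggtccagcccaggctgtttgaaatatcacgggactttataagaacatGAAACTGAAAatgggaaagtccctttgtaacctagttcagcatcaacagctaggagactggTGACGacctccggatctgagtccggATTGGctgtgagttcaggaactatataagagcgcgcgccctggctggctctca

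The stretch from enhancer A to the interferon element was nearly the same in the heavy-chain genes, with 29 of 30 bases identical. It is shown for both, though in H2-D1 it lies in an annotated exon, within the gene span given below, together with 30 bases around the X2 box core that lies between the start sites of Tap1 and Psmb9.
H2-K1, chr17:34000429-34000458, minus strand: GGGGATTCCCcatctccacagTTTCACTTC
H2-D1, chr17:35262923-35262952, plus strand: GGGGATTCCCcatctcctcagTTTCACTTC
Tap1 and Psmb9, chr17:34187457-34187486, plus strand: gcccagagacaggTGACGacagagggtcct

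Among all 32851 windows of the same length, enhancer A was present in 0.107%, GAANNGAAA in 7.52%, the interferon-stimulated response element in 3.44%, TGACG in 20.8% and ATTGG in 37.4%. Among the members' windows the first 2 motifs were found in H2-K1 and H2-D1 and the third in B2m. TGACG was found in B2m, H2-K1, H2-D1, Tap1 and Psmb9, and ATTGG in these and Tapbp. The gamma-activated site TTCNNNGAA was in 8.30% of all windows and in 1 of the 8, that of Psmb8. The window of Psmb10 held no match to any of these motifs. A match is a description of these letters, and no motif was tested for binding.

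Within stimulated cells, those with reporter signal (YFP+) were compared with those without it (YFP-). Presentation genes were lower in YFP+ samples across all of the roles, by 1.35-fold (Psmb8) to 2.81-fold (Tap1) among the 9 of 10 that passed the test. Only Tapbp did not pass, at a log2 difference of -1.21 (limma adjusted p = 0.074). No member was higher, and the groups did not overlap for 8 members, all but Tap2 and Tapbp. Of all 12364 genes tested, 18.5% were called lower and 3.28% higher (21.8% in all), and 17.8% were lower and 4.31% higher with groups that did not overlap. The members' median log2 difference was -0.92, against -0.19 over all genes.

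Stimulated YFP- samples differed from unstimulated ones in a split way. The immunoproteasome subunits and Nlrc5 were lower (4 members), H2-K1 and Tapbp were higher (2 members), and H2-D1, B2m, Tap1 and Tap2 did not pass. Of all genes, 20.9% were called lower and 30.2% higher (51.1% in all), and 21.7% and 30.9% had groups that did not overlap in these directions, as did the 4 and 2 members. The members' median was 0.15, against 0.14 over all genes. With the rRNA-like share of each library as a covariate, chosen after seeing the data, neither of the 2 rises passed, while the 4 falls did. By that fit 2590 of all 12364 genes were called higher and 2960 lower.

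In YFP+ against unstimulated samples, 7 members were lower and 0 higher, where 33.3% of all genes were called lower and 27.5% higher (60.8% in all). The groups did not overlap for the same 7, against 30.8% of all genes lower and 24% higher by that measure. The 3 that did not pass were H2-K1, Tap2 and Tapbp. The median was -1.02, against -0.03 over all genes. With the rRNA-like share as a covariate, chosen after seeing the data, 10 of 10 members were lower. By that fit 4738 of all 12364 genes were called lower and 2737 higher, and the median over all genes was -0.21. The 3 comparisons share samples in pairs, so their values for a gene are given side by side and are not independent.

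**Figure D1:**
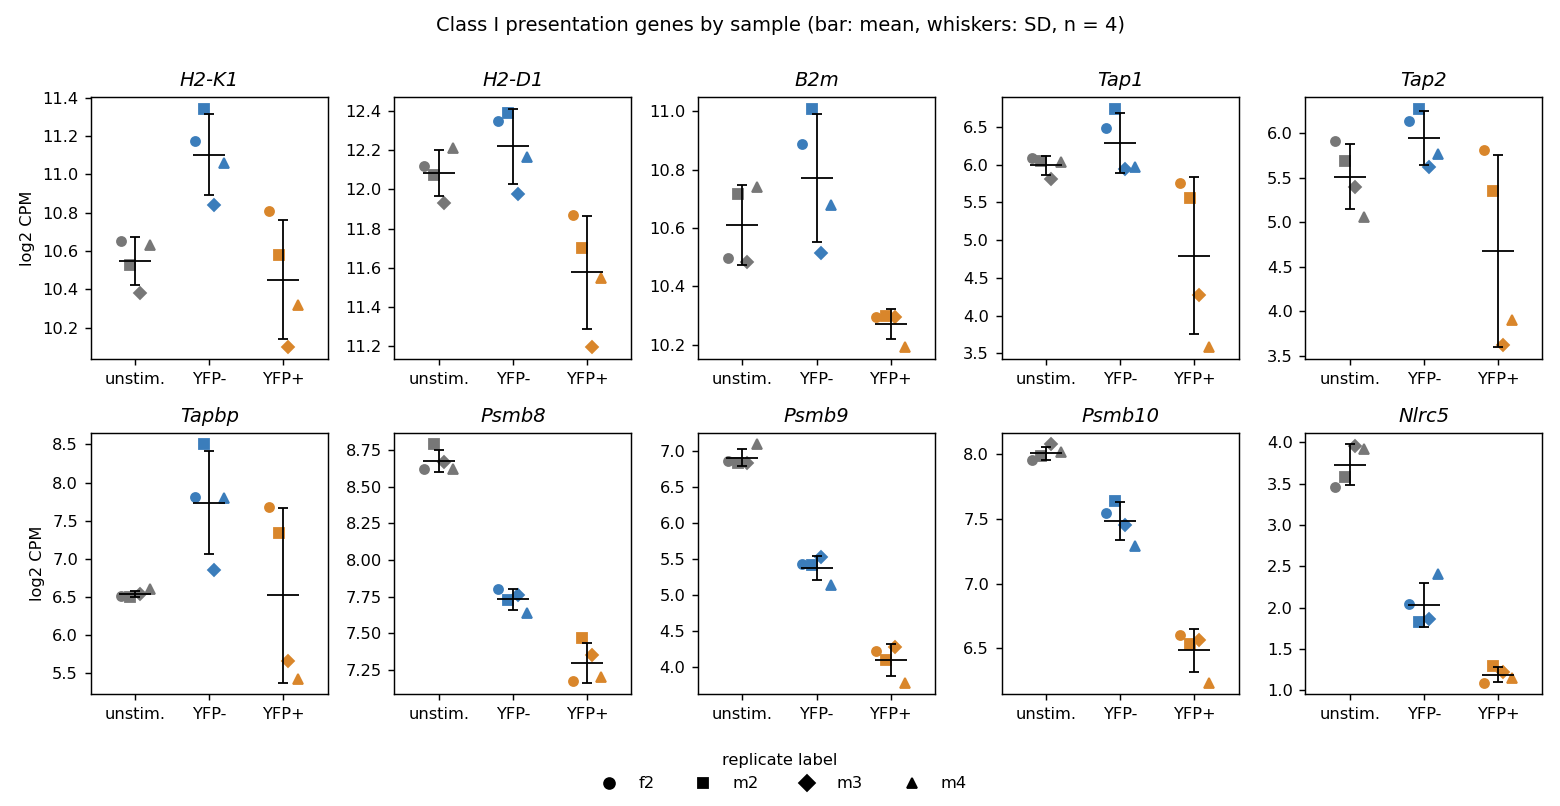
Level of each member in log2 CPM (vertical axis, a separate scale in each panel) in the 12 samples by group; symbols mark the replicate label, the bar is the mean and the whiskers the SD (n = 4). Psmb8, Psmb9, Psmb10 and Nlrc5 form 3 separate levels, while Tap1, Tap2 and Tapbp spread widely in YFP+ samples, with m3 and m4 lowest.

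**Figure D2:**
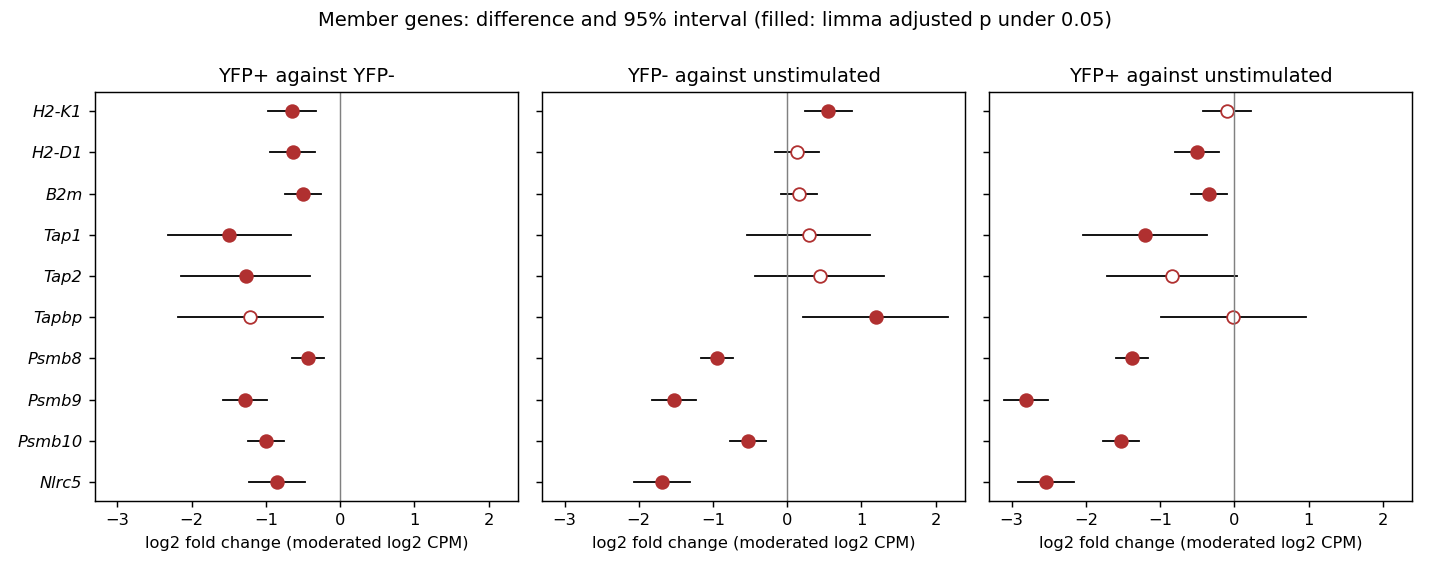
Log2 difference of each member (horizontal axis, moderated log2 CPM) with its 95% interval from the fit, in the 3 comparisons; filled points passed an adjusted p under 0.05 in limma. All points of the first panel lie below 0, from -1.49 for Tap1 to -0.43 for Psmb8.

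Among the heavy chains, H2-K1 (ENSMUSG00000061232; GRCm38 chromosome 17, 33996017 to 34000347, minus strand, protein coding) was at 1609, 1472, 1335 and 1588 CPM in the unstimulated samples f2, m2, m3 and m4. It was at 2308, 2592, 1832 and 2135 CPM in the YFP- samples and at 1794, 1528, 1096 and 1277 CPM in the YFP+ samples. Every YFP- sample was above every sample of the other groups, whose ranges overlapped each other. H2-K1 rose from unstimulated to YFP- by 0.55 on the log2 scale (SE 0.15; limma adjusted p = 0.0071). That call was lost with the rRNA-like share as a covariate (0.26, limma adjusted p = 0.10; 0.00084 to 0.10 over all alternatives). H2-K1 was lower in YFP+ than in YFP- by 0.65 (log2 difference -0.65, SE 0.15; limma adjusted p = 0.0069). Between YFP+ and unstimulated samples the log2 difference was -0.10, with a 95% interval from -0.42 to 0.22 (limma adjusted p = 0.60). It changed sign with the scaling (0.03 with median centring) and without YFP+ m3 (0.02), and passed with the rRNA-like share as a covariate (-0.41, limma adjusted p = 0.012; 0.012 to 0.91 over all alternatives).

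H2-D1 (ENSMUSG00000073411; chromosome 17, 35262730 to 35267499, plus strand, protein coding) was at 4452, 4306, 3900 and 4739 CPM in unstimulated samples, in the same order of labels. It was at 5211, 5361, 4024 and 4592 CPM in YFP- samples and at 3745, 3325, 2347 and 2991 CPM in YFP+ samples. All YFP+ samples were below all others, and the YFP- range reached above and into the unstimulated one. The log2 difference was -0.64 against YFP- (SE 0.14; limma adjusted p = 0.0050) and -0.50 against unstimulated samples (SE 0.14; limma adjusted p = 0.0062), and the latter call was lost with no filter (limma adjusted p = 0.055; 3.5e-05 to 0.055 over all alternatives). YFP- and unstimulated samples differed by 0.14 (95% interval -0.16 to 0.43), which was -0.0028 with median centring.

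B2m (ENSMUSG00000060802; chromosome 2, 122147686 to 122153083, plus strand, protein coding), whose product is needed for heavy chains to fold and reach the surface, was at 1447, 1684, 1433 and 1711 CPM in unstimulated samples. It was at 1895, 2060, 1461 and 1639 CPM in YFP- samples and at 1257, 1260, 1256 and 1169 CPM in YFP+ samples. The YFP+ samples lay close together and below all others. B2m was lower in YFP+ than in YFP- samples by a log2 difference of -0.50 (SE 0.11; limma adjusted p = 0.0064), or -0.31 relative to the median of all genes, and than in unstimulated samples by -0.34 (limma adjusted p = 0.018). The call against YFP- was lost with median centring (-0.24, limma adjusted p = 0.12) and with no filter (limma adjusted p = 0.061; 0.0014 to 0.12 over all alternatives). That against unstimulated samples was lost without the unstimulated library m2 or m4 (limma adjusted p = 0.055 and 0.056), and with centring, trimmed-mean scaling, voom weights or no filter (0.00055 to 0.13 over all alternatives). YFP- and unstimulated samples differed by 0.16 (95% interval -0.08 to 0.41), which changed sign with quantile normalization (-0.04).

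The ratio of heavy to light chain within a sample does not depend on the library total. The mean log2 ratio of H2-K1 to B2m was -0.06 ± 0.15 (SD, n = 4) in unstimulated samples, 0.33 ± 0.04 in the YFP- group and 0.18 ± 0.30 in the YFP+ group. It was higher in YFP- than in unstimulated samples in 4 of 4 pairs of labels, by 0.39 (2-sided exact permutation p = 0.0286, the smallest possible with 4 against 4; 0.0429 after Benjamini-Hochberg adjustment over 15 ratio tests). The ratio of H2-D1 to B2m was 1.47 ± 0.11, 1.45 ± 0.05 and 1.31 ± 0.29 in that order, and none of its 3 differences passed (exact permutation p = 0.371 to 0.80). H2-K1 thus rose relative to B2m in YFP- samples and H2-D1 was not shown to.

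In the stimulated groups the genes of peptide transport and loading varied most between replicates of the 10, with log2 SDs from 0.30 to 0.68 among YFP- and from 1.04 to 1.15 among YFP+ libraries. Tap1 (ENSMUSG00000037321; chromosome 17, 34187553 to 34197225, plus strand, protein coding), a subunit of the peptide transporter, was at 68.0, 66.2, 56.0 and 65.6 CPM in unstimulated and at 90.0, 107, 61.3 and 62.6 CPM in YFP- samples. In YFP+ samples it was at 54.2 (f2), 47.0 (m2), 19.3 (m3) and 12.0 CPM (m4). All YFP+ samples were below all others, and m3 and m4 were far below f2 and m2. The log2 difference was -1.49 against YFP- (SE 0.39; limma adjusted p = 0.014) and -1.20 against unstimulated samples (SE 0.39; limma adjusted p = 0.015), and both calls held under all 23 alternatives. YFP- samples did not differ from unstimulated ones beyond the spread (0.29, 95% interval -0.54 to 1.12), and that value turned to -0.42 with the rRNA-like share as a covariate.

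Tap2 (ENSMUSG00000024339; chromosome 17, 34203527 to 34216321, plus strand, protein coding), the other transporter subunit, was at 60.0, 51.4, 42.0 and 33.3 CPM in unstimulated and at 70.1, 77.2, 49.3 and 54.2 CPM in YFP- samples. In YFP+ samples it was at 56.3, 40.9, 12.3 and 14.9 CPM. The YFP+ samples f2 and m2 lay within the unstimulated range, and m3 and m4 were below every other sample. Tap2 passed against YFP- samples (log2 difference -1.28, SE 0.40; limma adjusted p = 0.038) but not against unstimulated ones (-0.84, 95% interval -1.71 to 0.03; limma adjusted p = 0.089). The first call was lost without any 1 of 7 libraries (unstimulated m2 or m3, YFP- f2, m2 or m4, YFP+ m3 or m4), with limma adjusted p of 0.051 to 0.12, and with trimmed-mean scaling, voom weights or only the 8 samples compared (0.00051 to 0.12 over all alternatives). Against unstimulated samples Tap2 passed without YFP+ f2 (-1.22, limma adjusted p = 0.0083) or m2 (-1.07, limma adjusted p = 0.043) and with the rRNA-like share as a covariate (-1.80, limma adjusted p = 0.00010; 0.00010 to 0.25 over all alternatives).

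Tapbp (ENSMUSG00000024308; chromosome 17, 33915899 to 33929292, plus strand, protein coding), the bridge between transporter and heavy chain, was at 91.8, 91.0, 93.4 and 97.0 CPM in unstimulated samples, the tightest set among these genes. In YFP- samples it was at 224, 362, 115 and 221 CPM, and in YFP+ samples at 204, 162, 50.8 and 42.9 CPM. All YFP- samples were above all unstimulated ones, while YFP+ samples fell on both sides, with f2 and m2 above and m3 and m4 below. The rise from unstimulated to YFP- was 1.19 (SE 0.45; limma adjusted p = 0.041). It was lost without any 1 of 7 libraries, all 4 unstimulated ones and YFP- f2, m2 or m4, with limma adjusted p of 0.069 to 0.12 (0.0011 to 0.72 over all alternatives). Between YFP+ and YFP- the log2 difference of -1.21 (SE 0.45) passed without YFP- m3 (-1.51), YFP+ f2 (-1.59) or YFP+ m2 (-1.48), with limma adjusted p of 0.036, 0.014 and 0.037 (0.0012 to 0.22 over all alternatives). Between YFP+ and unstimulated samples it was -0.02 (95% interval -0.99 to 0.96), and its sign changed with the scaling (0.11 with median centring).

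Within the stimulated groups, the levels of these 3 genes were mostly lower at a higher rRNA-like share. In YFP+ samples Tap1 and Tapbp were lowest in m4, though m3 had the highest share. The levels of H2-K1 and H2-D1 were highest at the lowest share and lowest at the highest in both groups, while those of B2m were so only in YFP-. In YFP+ samples that share was 13.7% in f2, 16.3% in m2, 29.8% in m3 and 23.1% in m4, so the libraries with low Tap1, Tap2 and Tapbp had the higher shares. In YFP- samples it was 18.7, 15.9, 30.3 and 20.0%, and m3, with the highest share, had the lowest Tap1, Tap2 and Tapbp. With the share as a covariate Tapbp differed between YFP- and unstimulated samples by 0.15 (limma adjusted p = 0.72). With the same covariate it was lower in YFP+ than in YFP- samples (log2 difference -1.27, limma adjusted p = 0.0012) and than in unstimulated ones (-1.11, limma adjusted p = 0.0068). The unstimulated libraries had shares of 27.4 to 35.3%, so share and group overlapped only in part.

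**Figure D3:**
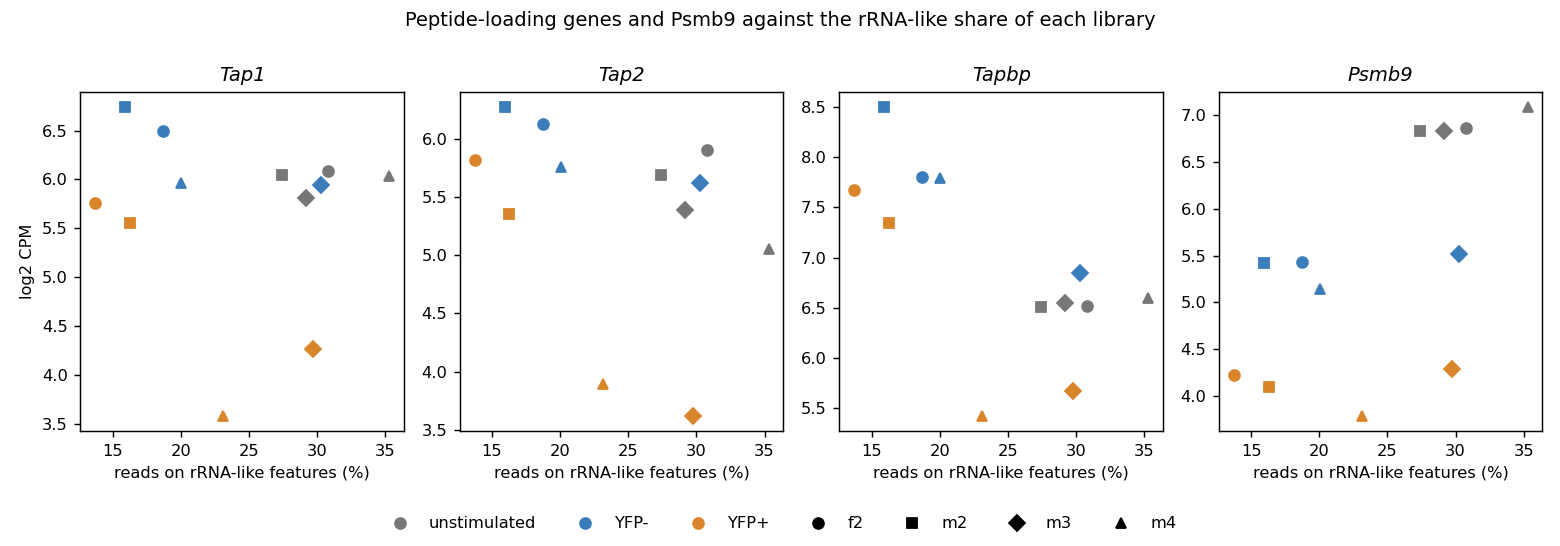
Log2 CPM of Tap1, Tap2, Tapbp and Psmb9 (vertical axes, separate scales) against the percentage of reads on rRNA-like features in each of the 12 libraries (horizontal axis); colours mark the group and symbols the replicate label. The YFP+ libraries at 23.1 and 29.8% have the lowest Tap1, Tap2 and Tapbp of all samples, while Psmb9 is separated by group at both low and high shares.

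The immunoproteasome subunits were lower in YFP- than in unstimulated samples and lower again in YFP+ than in YFP- samples, with little spread between replicates. Psmb8 (LMP7; ENSMUSG00000024338; chromosome 17, 34197721 to 34201454, plus strand, protein coding), the chymotrypsin-like subunit, was at 394, 442, 406 and 394 CPM in unstimulated and at 223, 212, 217 and 199 CPM in YFP- samples. In YFP+ samples it was at 145, 177, 164 and 147 CPM. No 2 groups overlapped. Psmb8 fell by 0.94 on the log2 scale from unstimulated to YFP- (SE 0.10; limma adjusted p = 5.7e-06) and was lower in YFP+ than in YFP- samples by a further 1.35-fold (log2 difference -0.43, SE 0.10; limma adjusted p = 0.0069), or -0.24 relative to the median of all genes. The last call was lost with median centring (-0.17, limma adjusted p = 0.29; 0.0020 to 0.29 over all alternatives).

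Psmb9 (LMP2; ENSMUSG00000096727; chromosome 17, 34181987 to 34187764, minus strand, protein coding), the subunit that takes the caspase-like position, had the largest difference of the 10 between YFP+ and unstimulated samples. It was at 116, 114, 114 and 136 CPM in unstimulated samples. In YFP- samples it was at 43.2, 42.8, 45.9 and 35.2 CPM and in YFP+ samples at 18.7, 17.1, 19.5 and 13.8 CPM. The 3 groups were separate. Psmb9 fell by 1.52 on the log2 scale from unstimulated to YFP- (SE 0.14; limma adjusted p = 1.6e-06), was lower again in YFP+ (log2 difference -1.28; limma adjusted p = 4.1e-05) and was 6.98-fold lower in YFP+ than in unstimulated samples (log2 difference -2.80; limma adjusted p = 2.9e-09).

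Psmb10 (MECL-1; ENSMUSG00000031897; chromosome 8, 105935735 to 105938444, minus strand, protein coding), the trypsin-like subunit, was at 248, 253, 269 and 258 CPM in unstimulated samples. It was at 186, 199, 175 and 157 CPM in YFP- and at 97.0, 92.9, 94.5 and 75.4 CPM in YFP+ samples, again with no overlap. Psmb10 was 1.44-fold lower in YFP- than in unstimulated samples (log2 difference -0.53, SE 0.11; limma adjusted p = 0.0016). It was 1.99-fold lower in YFP+ than in YFP- samples (-0.995, SE 0.11; limma adjusted p = 5.9e-05), and these differences were not tested against each other.

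The constitutive catalytic subunits moved the other way against unstimulated samples. Psmb5, which Psmb8 replaces, averaged 123 ± 10.5 CPM (SD, n = 4) in unstimulated samples, 209 ± 9.60 CPM in the YFP- group and 247 ± 1.74 CPM in the YFP+ group. Psmb6, which Psmb9 replaces, averaged 272 ± 27.1, 387 ± 32.1 and 480 ± 22.5 CPM, and Psmb7, which Psmb10 replaces, 33.6 ± 1.51, 56.0 ± 5.80 and 68.2 ± 6.69 CPM. From unstimulated to YFP- these genes rose by 0.77, 0.51 and 0.73 on the log2 scale (limma adjusted p = 2.1e-05, 0.0010 and 0.00016), though Psmb6 did not pass with quantile normalization (0.25, limma adjusted p = 0.063). In YFP+ against unstimulated samples the rises were 1.01, 0.82 and 1.02 (limma adjusted p = 7.4e-07, 1.1e-05 and 4.9e-06). Only Psmb6 passed between YFP+ and YFP- (0.31, limma adjusted p = 0.043), not so without rRNA-like features (0.30, limma adjusted p = 0.063). Psmb5 and Psmb7 differed there by 0.24 and 0.28 (limma adjusted p = 0.084 and 0.099).

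The ratio of each immunoproteasome subunit to its constitutive counterpart, taken within a sample, was highest in unstimulated, lower in YFP- and lowest in YFP+ samples. The mean log2 ratio of Psmb8 to Psmb5 was 1.74 ± 0.14 (SD, n = 4) in unstimulated samples, 0.03 ± 0.13 in the YFP- group and -0.65 ± 0.14 in the YFP+ group. Psmb9 to Psmb6 was -1.18 ± 0.25, -3.22 ± 0.28 and -4.81 ± 0.26, and Psmb10 to Psmb7 was 2.94 ± 0.07, 1.68 ± 0.28 and 0.40 ± 0.21. As CPM ratios, Psmb8 went from 3.34 times the level of Psmb5 to 0.638 times, on CPM that are not corrected for transcript length, so only the change in a ratio can be read. In all 9 comparisons the groups did not overlap and the ratio was lower in 4 of 4 label pairs. Each had a 2-sided exact permutation p of 0.0286, the smallest possible, and 0.0429 after adjustment over the 15 ratio tests.

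**Figure D4:**
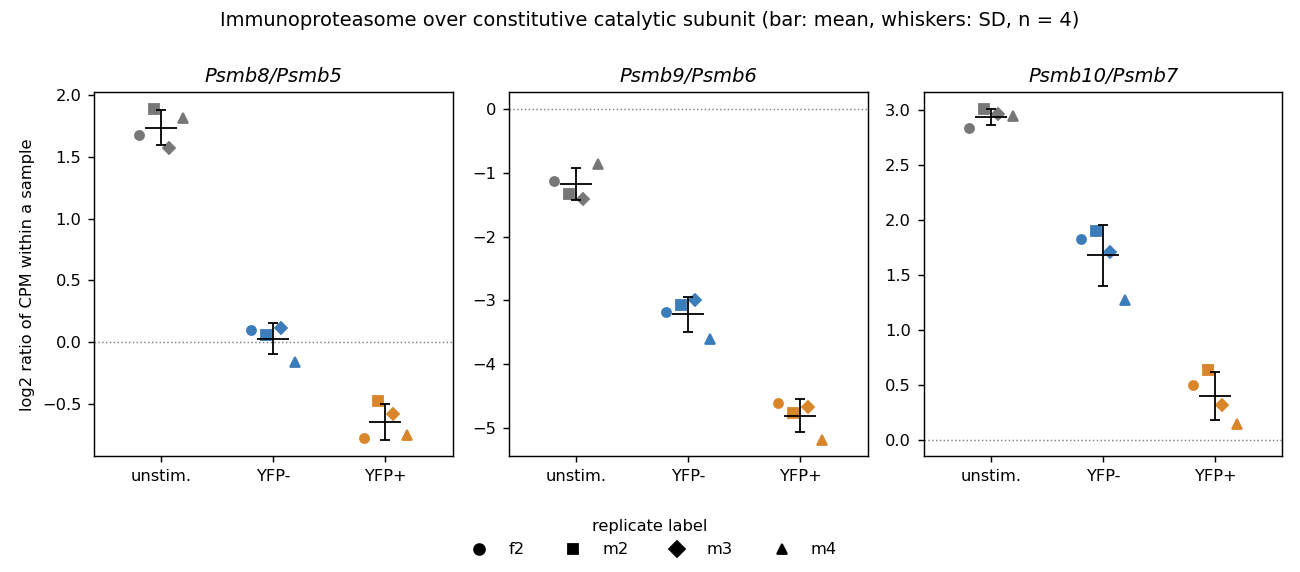
Log2 ratio of the CPM of an immunoproteasome subunit to that of its constitutive counterpart (vertical axes, separate scales; the dotted line is 0, equal CPM) in the 12 samples by group; symbols mark the replicate label, bars the mean and whiskers the SD (n = 4). In each panel the 3 groups are separate and ordered from unstimulated to YFP- to YFP+.

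Nlrc5 (ENSMUSG00000074151; chromosome 8, 94434356 to 94527272, plus strand, protein coding), the regulator, was the lowest of the 10 per length. It was at 10.99, 11.97, 15.5 and 15.1 CPM in unstimulated samples, from 419 to 617 reads each. In YFP- samples it was at 4.13, 3.53, 3.64 and 5.30 CPM (158 to 260 reads) and in YFP+ samples at 2.13, 2.45, 2.32 and 2.21 CPM (71 to 133 reads). The 3 groups were separate. Nlrc5 fell by 1.69 on the log2 scale from unstimulated to YFP- (SE 0.18; limma adjusted p = 5.1e-06) and was 5.80-fold lower in YFP+ than in unstimulated samples (log2 difference -2.54; limma adjusted p = 5.2e-08). The log2 difference between YFP+ and YFP- was -0.85 (SE 0.18; limma adjusted p = 0.0038), and that call was lost with quantile normalization (-0.48, limma adjusted p = 0.074; 0.0023 to 0.074 over all alternatives).

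The neighbours Tap1 and Psmb9 are transcribed in opposite directions from RefSeq start sites 226 bases apart and share the interval around the X2 box core shown above. From unstimulated to YFP- samples Psmb9 fell by 1.52 while the log2 difference of Tap1 was 0.29 and did not pass. In YFP+ against YFP- samples the log2 differences were -1.28 for Psmb9 and -1.49 for Tap1. Within YFP+ samples Psmb9 ran from 13.8 to 19.5 CPM, and Tap1 from 12.0 to 54.2 CPM. In GENCODE M21 their exons overlap on opposite strands over 212 bases. Exons of other genes, most of them antisense, also overlap 18.5% of the exon bases of Tap2, 29.0% of those of Tapbp and 14.7% of those of Psmb8. The strand setting of the counting is not given in the sources used here, so reads from such stretches cannot be told apart.

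Per kilobase of exon, B2m (1824 CPM per kb) and H2-D1 (1687) had the highest levels in unstimulated samples and overlapped. Lengths count every annotated exon base, 3660 for Psmb9 and 3381 for Psmb8, against 1352 and 1628 in their longest coding transcripts. For Tap1 they are 5476 and 2953, so the order of genes with close values, such as Psmb10 and Psmb8, depends on the length used. H2-K1 (511), Psmb10 (151) and Psmb8 (121) followed, each apart from the next. Psmb9 (32.8) and Tapbp (25.7) were also apart, while Tap2 (12.3) and Tap1 (11.7) overlapped, and Nlrc5 (1.58) was lowest. In YFP+ samples the mean of Psmb9 was 4.72 CPM per kb, below Tap2 (8.22) and Tap1 (6.05) by this length, an order that depends on it. The range of Psmb9 reached above the lowest samples of both, and Nlrc5 was at 0.268 CPM per kb. Psmb10 (52.8) and Psmb8 (46.8) overlapped there.

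Other genes of the pathway were read against the same background percentages. Among 14 tested class I chains other than the members, 7 were lower and 1 higher in YFP+ than in YFP- samples, with a median log2 difference of -0.67. Of all genes, 18.5% were called lower and 3.28% higher there. H2-Q6 (-2.41) and the pseudogene H2-K2 (-1.80) had the largest falls and H2-M3, which presents formylated peptides, was higher (0.48, limma adjusted p = 0.028). Against unstimulated samples 9 were lower and 2 higher in YFP+, and 3 were lower and 2 higher in YFP-. Of all genes, 33.3% were called lower and 27.5% higher in YFP+, and 20.9% and 30.2% in YFP-. The count of falls in YFP- is close to that share, so nothing about the list is read from it. H2-T24 rose from a mean of 3.84 CPM to 11.4 in YFP- and 15.6 CPM in YFP+, and H2-M3 from 40.0 to 76.6 and 107 CPM. H2-Q10 (-1.98) and H2-Q6 (-1.82) fell most in YFP+ against unstimulated samples, and H2-Q10 (-0.996) and Mr1 (-0.92) in YFP-. H2-T23, which encodes Qa-1, the ligand of CD94/NKG2 receptors, averaged 62.0, 75.4 and 72.0 CPM and passed in none of the 3 comparisons. Heavy-chain genes share sequence: 6.9% of the 75-base windows of the H2-D1 transcript and 1.55% of those of H2-K1 also occur in transcripts of other genes, so the values of close copies such as H2-Q6 and H2-K2 are uncertain.

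The loading chaperones and trimming peptidases went in both directions. Of 11 tested, 3 were lower and 0 higher in YFP+ than in YFP- samples (median 0.01), and 6 were higher and 2 lower in YFP- than in unstimulated samples (median 0.40). Against unstimulated samples 5 were higher and 3 lower in YFP+ (median 0.42). Over all genes 3.28% were called higher and 18.5% lower in the first of these comparisons. The shares were 30.2% and 20.9% in the second and 27.5% and 33.3% in the third. Calr, the chaperone calreticulin, rose from a mean of 195 CPM to 356 CPM in YFP- and 488 CPM in YFP+ samples, though with the rRNA-like share as a covariate the first rise did not pass (0.41, limma adjusted p = 0.054). The peptidases Thop1 (1.53 in YFP- and 1.64 in YFP+ against unstimulated) and Lap3 (1.52 and 1.54) had the largest rises. Npepps (-1.15 and -1.87) and Lnpep (-0.82 and -1.61) had the largest falls, and Lnpep was also lower in YFP+ than in YFP- samples (-0.79). Tapbpl, the tapasin-related peptide editor, was at 59.3 and 70.4 CPM in unstimulated and YFP- samples and at 36.1 CPM in YFP+ samples (log2 difference against YFP- -0.98, limma adjusted p = 0.0014). Erap1, which trims peptides in the endoplasmic reticulum, rose by 0.47 in YFP- samples, a call lost with quantile normalization (0.30, limma adjusted p = 0.081), and by 0.57 in YFP+ samples. Pdia3 passed in none of the comparisons.

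Among the 9 other proteasome genes, 6 were higher and 0 lower in YFP- than in unstimulated samples, and 6 were higher and 1 lower in YFP+ than in unstimulated samples. Of all genes, 30.2% were called higher and 20.9% lower in YFP-, and 27.5% and 33.3% in YFP+. Between YFP+ and YFP-, 1 was higher and 0 lower, where 3.28% of all genes were higher and 18.5% lower. With median centring 6 were higher, where 1505 of all 12364 genes were. Psme3, a nuclear proteasome activator, rose by 1.66 in YFP- and 2.05 in YFP+ samples. The interferon-inducible activator subunits diverged in YFP+ against unstimulated samples, where Psme2 rose by 0.50 and Psme1 was lower (-0.26, limma adjusted p = 0.024). The call of Psme2 was lost with quantile normalization (0.29, limma adjusted p = 0.062) and that of Psme1 with median centring (-0.13, limma adjusted p = 0.23).

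Of 15 factors that act on class I transcription, 6 were lower and 1 higher in YFP+ than in YFP- samples, with a median log2 difference of -0.93. Of all genes, 18.5% were called lower and 3.28% higher there. Irf1, an interferon-induced activator of class I and immunoproteasome genes, averaged 37.9 ± 7.59 CPM (SD, n = 4) in unstimulated samples, 32.2 ± 5.61 in the YFP- group and 9.74 ± 5.58 in the YFP+ group. It was lower in YFP+ than in YFP- by a log2 difference of -1.91 (SE 0.34; limma adjusted p = 0.0014). In YFP+ f2, m2, m3 and m4 Irf1 was at 15.8, 13.1, 4.56 and 5.48 CPM, lower in the libraries with the higher rRNA-like shares. The log2 difference was -1.09 for Irf2 and -1.61 for Irf9. Nfya, a subunit of the factor that binds the Y box, was higher (0.47, limma adjusted p = 0.019).

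Against unstimulated samples, 4 of the 15 factors were higher and 3 lower in YFP-, and 2 were higher and 9 lower in YFP+. In YFP- these shares are close to those over all genes (30.2% higher and 20.9% lower), so nothing about the list is read from them. In YFP+ 27.5% of all genes were called higher and 33.3% lower. Irf1 in YFP- samples did not pass (-0.23, 95% interval -0.97 to 0.50; limma adjusted p = 0.59). Nfkb1, a subunit of the factor that binds enhancer A, rose by 1.11 in YFP- and 1.17 in YFP+ samples, Irf9 by 1.05 in YFP- and Nfya by 0.74 in YFP+. Rfxap (-0.86) and Stat2 (-0.83) were lower in YFP-. With the rRNA-like share as a covariate, Irf9 (0.49, limma adjusted p = 0.14) and Rfxap (-0.61, limma adjusted p = 0.054) did not pass there. In YFP+ samples Irf1 (-2.14), Irf2 (-1.23), Rfx5 (-0.97) and Ciita, the class II counterpart of Nlrc5 (-3.96), were lower. Ciita had 52 to 101 reads in unstimulated samples and 14, 25, 1 and 1 reads in YFP+ f2, m2, m3 and m4. Its counts in m3 and m4 lie under the floor of 3 reads, so the size of its difference is uncertain.

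Interferon receptor and signalling genes were mostly lower in YFP+ samples. Of 7 tested, 6 were lower and 0 higher than in YFP- samples, where 18.5% of all genes were called lower and 3.28% higher. With trimmed-mean scaling 3 were lower, where 1675 of all 12364 genes were. Ifngr1, a chain of the interferon gamma receptor, averaged 469 ± 168.5, 229 ± 42.4 and 54.8 ± 31.1 CPM (SD, n = 4) in unstimulated, YFP- and YFP+ samples. Its log2 difference was -2.33 between YFP+ and YFP- (SE 0.47; limma adjusted p = 0.0031) and -3.29 between YFP+ and unstimulated samples. In YFP+ f2, m2, m3 and m4 Ifngr1 was at 83.9, 73.3, 14.0 and 47.9 CPM, also lower in the libraries with the higher rRNA-like shares. Ifnar2, a chain of the type I interferon receptor, was lower in all 3 comparisons (-1.16, -0.69 against unstimulated in YFP- and -1.84 in YFP+). Against unstimulated samples 5 were lower and 1 higher in YFP+ and 3 lower and 2 higher in YFP-. Of all genes, 33.3% were called lower and 27.5% higher in YFP+, and 20.9% and 30.2% in YFP-. Socs1, an inhibitor of interferon signalling, fell by 0.89 in YFP- and 1.57 in YFP+ samples, the first not past the threshold with the rRNA-like share as a covariate (-0.63, limma adjusted p = 0.051). The kinase Jak2 rose by 1.25 and 1.13, and Tyk2 rose in YFP- samples by 0.40, a call lost with quantile normalization (0.21, limma adjusted p = 0.13).

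**Figure D5:**
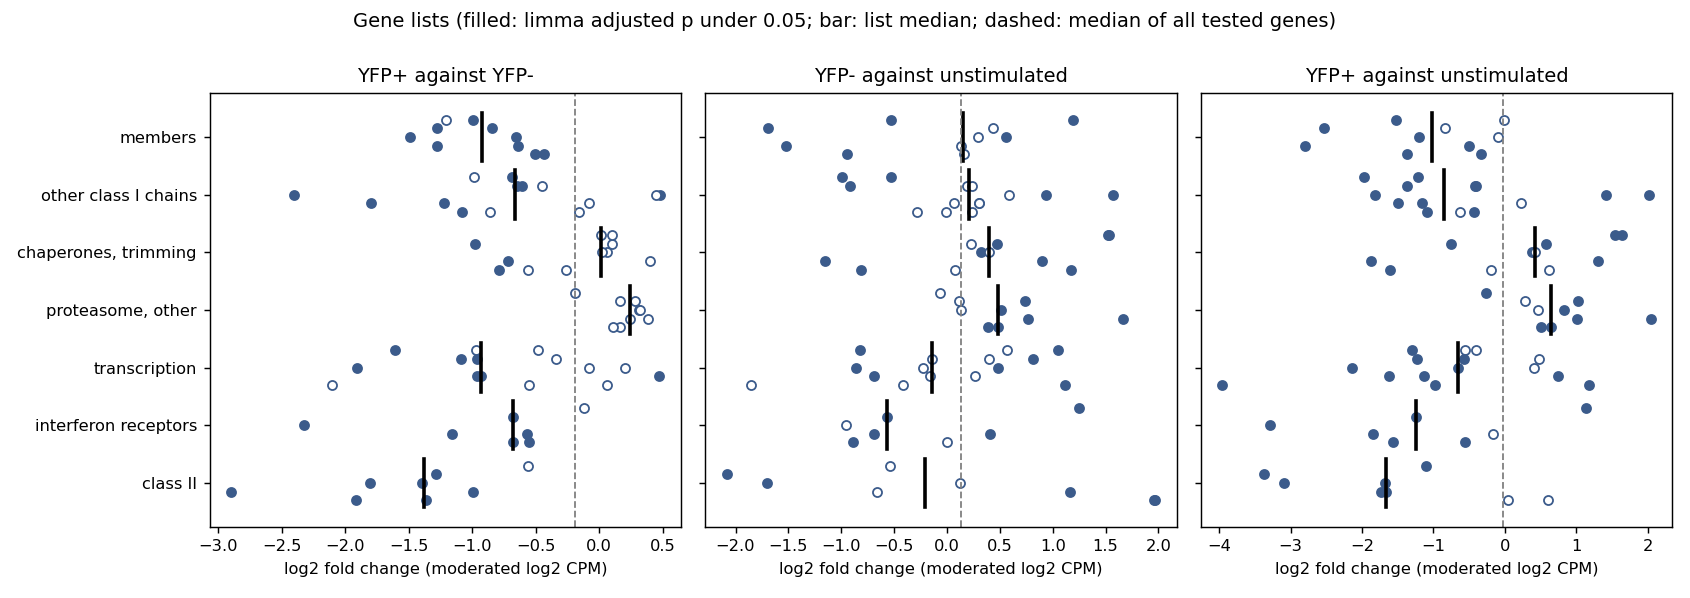
Log2 difference (horizontal axis, moderated log2 CPM) of each tested gene of the members and of 6 related lists in the 3 comparisons; filled points passed an adjusted p under 0.05 in limma, black bars are list medians and the dashed line is the median of all 12364 genes. In YFP+ against YFP- samples the medians of the members (-0.92) and the other class I chains (-0.67) lie left of the dashed line (-0.19), and those of chaperones and trimming (0.01) and other proteasome genes (0.24) lie right of it.

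The direction of these differences was checked against the scaling of the libraries, since the median of all genes in YFP+ against YFP- moved from -0.19 as deposited to 0.07 with median centring, and all-gene calls from 405 higher and 2286 lower to 1505 and 1491 (1016 and 1675 under trimmed-mean scaling, 1144 and 1627 under voom weights, 1163 and 1430 after quantile normalization). In YFP- against unstimulated samples the calls went from 3735 higher and 2586 lower to 3072 and 3444 without rRNA-like features and to 2590 and 2960 with their share as a covariate. In the first of these comparisons the members' count under centring was 0 higher and 7 lower. Of the 32 calls among the genes of the other lists in that comparison, 21 held under all 6 other scalings and fits checked for them, and 0 changed direction.

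The 10 genes whose pattern over the 12 samples was most like the mean of the scaled members had Pearson correlations with it of 0.976 to 0.991, a description across samples that share libraries and groups. They were Neurl3, Pbxip1, Tcp11l2, Fuca1, Apobec3, Neil3, Hrh2, Lpxn, Nuf2 and Ifi209. The members' own correlations with that mean ran from 0.61 (Tapbp) to 0.94 (H2-D1). Neurl3, the gene most like it, had a mean of 5.58 log2 CPM in unstimulated samples, 5.38 in the YFP- group and 3.80 in the YFP+ group, with a log2 difference of -1.57 between the stimulated groups.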

How the data were processed

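RNA from 12 samples was sequenced as paired ends on a NovaSeq from 10 ng of total RNA, after the SMARTer Ultra Low kit, per the labels' protocols. The submitters' processing notes name STAR 2.7.9a, featureCounts 2.0.3 and GRCm38, without parameters. The values the authors deposited are moderated log2 CPM scaled to the library total, which was read from the values themselves (no file header gives the formula). After 287 repeated lines were dropped, whole reads (within 0.01) and totals were recovered for 100% of values (prior 0.5 reads). There were 0 columns of no sample.

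A gene entered the fit when at least 4 samples exceeded a log2 CPM of 0. The fit was made in limma 3.58.1 (R 4.3.3), with all 12 samples, 1 coefficient per group and eBayes with trend. Calls needed a Benjamini-Hochberg adjusted p under 0.05 over 12364 genes. Fold changes are on the moderated log2 CPM scale. Ratios were tested by exact permutation (scipy 1.17.1). Members and lists were chosen with earlier results of these data known. Named are all members, 16 set list genes (1 of them is not reported here), per list and comparison the 2 largest rises and falls past the threshold, and the 10 genes most like the members. On simulated reads for YFP+ against YFP-, 86.5% of 96 genes changed by 1 log2 unit were called among 12099 tested, with 14 unchanged genes called. The simulation gave all genes the same dispersion (0.04). That share therefore does not hold for genes that spread more, such as Tap1, Tap2 and Tapbp in YFP+ samples. Positions come from GENCODE M21 on GRCm38 (99.5% of identifiers matched) and are not the authors' own. The 23 alternatives covered the replicate block, samples fitted, filter, pseudocount, scaling, weights, each library left out and, chosen after seeing the data, the rRNA-like share as a covariate. The floor of 3 reads covers counting error only, as no molecular identifiers are named.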

Additional observations from a re-analysis of the deposited data

Results flagged for a closer look

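In 2 of 45 sets of 4 values (the 10 members and 5 ratios in 3 groups), 1 sample stood apart from the other 3 past Dixon's 95% limit, where chance gives about 1 in 20, or 2.25. B2m in the YFP+ sample m4 was the lowest of its group, at 10.19 log2 CPM against 10.29 to 10.30 in the others (gap over range 0.9589). Psmb9 in the unstimulated sample m4 was the highest of its group, at 7.08 log2 CPM against 6.83 to 6.86 (gap over range 0.8814).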

How the results depend on the processing

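Of 30 member results (10 genes in 3 comparisons), 14 kept direction and side of the threshold under all 23 alternatives, among them 10 of 12 for Psmb8, Psmb9, Psmb10 and Nlrc5. The count of members higher in YFP- than in unstimulated samples was 2, ran from 1 to 2 with a library left out, and was 0 with the rRNA-like share as a covariate. Log2 differences that changed sign were all short of the threshold. For YFP- against unstimulated samples, H2-D1 went to -0.0028 with median centring, -0.046 without rRNA-like features and -0.13 with the covariate, B2m to -0.0423 with quantile normalization and -0.0206 without rRNA-like features, and Tap1 and Tap2 to -0.42 and -0.47 with the covariate. For YFP+ against unstimulated samples, centring, trimmed-mean scaling and voom weights gave H2-K1 0.0263, 0.0328 and 0.0368, and Tapbp 0.11, 0.11 and 0.15. Leaving out a library gave -0.22 to 0.02 for H2-K1 (0.0203 without YFP+ m3), -0.40 to 0.35 for Tapbp (0.0029 without unstimulated m4, 0.27 without YFP+ m3, 0.35 without YFP+ m4) and -0.0648 to 0.0243 for log2 H2-D1 over B2m in YFP- against unstimulated samples. The cause was not tested. With the replicate label as a block, members lower in YFP+ went from 9 to 10 against YFP- (Tapbp added, limma adjusted p = 0.028) and from 7 to 8 against unstimulated samples (Tap2 added, limma adjusted p = 0.014), Psmb6 did not pass between YFP+ and YFP- (limma adjusted p = 0.051), and calls over all genes from 2691, 6321 and 7522 to 3098, 6682 and 7774. Same-label correlations of deviations were 0.05, 0.35, 0.37 and 0.17 (f2, m2, m3, m4) between YFP+ and YFP-, where m2, m3 and m4 correlated best with their own label and f2 did not, and ran from -0.06 to 0.38 in the other comparisons. The labels do not say what a shared replicate label marks. The exact sign-flip test over label pairs cannot go below p = 0.125, and the ratio tests cannot pass with a library left out, by construction.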

Other observations

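Class II presentation genes, which display peptides from outside the cell, were measured beside class I. Of 8 tested, 7 were lower and 0 higher in YFP+ than in YFP- samples, with a median log2 difference of -1.38, where 18.5% of all genes were called lower. H2-Aa (-2.90, from a mean of 4.50 to 0.593 CPM) and Cd74, the invariant chain (-1.91), had the largest falls. Against unstimulated samples 3 were higher and 2 lower in YFP-, and 0 higher and 6 lower in YFP+. Of all genes, 30.2% were called higher and 20.9% lower in YFP-, and 27.5% and 33.3% in YFP+. The counts in YFP- are near those shares, so nothing about the list is read from them. H2-Ab1, a class II beta chain, averaged 89.6 ± 6.39 CPM (SD, n = 4) in unstimulated samples, 27.8 ± 4.83 in the YFP- group and 10.5 ± 1.64 in the YFP+ group, and H2-DMa, a peptide editor, 68.3 ± 12.8, 16.1 ± 2.84 and 6.56 ± 0.96 CPM. These 2 genes had the largest falls against unstimulated samples, by 1.70 and 2.08 on the log2 scale in YFP- and by 3.10 and 3.37 in YFP+. Cd74 rose from 10.8 ± 4.81 to 39.1 ± 4.36 CPM in YFP- samples (log2 difference 1.95) and was at 10.4 ± 1.15 CPM in YFP+ samples, and H2-Eb1 rose by 1.97 in YFP- samples. Macrophage, monocyte and dendritic cell markers were at 35.5 to 53.7 CPM in YFP- and 21.8 to 24.5 CPM in YFP+ samples, most of it Itgax. Among them Xcr1, a dendritic cell marker, averaged 1.54 ± 0.48 CPM in unstimulated samples, 4.79 ± 0.99 in the YFP- group and 1.82 ± 0.31 in the YFP+ group. Xcr1 was higher in YFP- than in unstimulated samples (1.67, limma adjusted p = 0.00020) and lower in YFP+ than in YFP- samples (-1.39, limma adjusted p = 0.0026). The other tested markers of the list, Itgax (-0.03) and Cd14 (-0.84), did not pass in YFP- against unstimulated samples (limma adjusted p = 0.88 and 0.14). The rest were too low to be tested. Flt3 had 0, 5, 0 and 0 reads in unstimulated samples f2, m2, m3 and m4 and 4, 0, 8 and 7 in YFP- samples. Csf1r had 4 to 12 and 4 to 10 reads in these groups. Lyz2 had 0 reads in all 4 YFP- samples, and Adgre1 and Clec9a, another dendritic cell marker, at most 1 read in each. The part of these markers in the class II differences was not tested.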
